A study of Mus musculus with 15 samples.

Results

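Natriuretic peptides and the other fetal program genes of the heart were read by 15 probes for 8 genes, Nppa, Nppb, Myh6, Myh7, Acta1, Ankrd1, Rcan1 and Xirp2. The genes were taken as a list, and a probe was a member when the accession it was designed on belongs to 1 of the 8 symbols. The array holds 41174 probes that are not controls, of which 26918 have a symbol, for 18350 genes in all. No member passed the test in any comparison of meth and PBS hearts. The patterns closest to it were a higher Nppa signal after meth in both sexes, a high Myh7 signal in the meth males of 1 of the 2 male trials, and a lower Rcan1 signal after meth. The 8 genes did not share a direction. The mean of Nppb and of Acta1 was lower in males after meth, and that of Myh6 differed by less than its spread.

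The adult heart ventricle normally keeps these genes at an adult setting, and a heart under pressure or volume load turns part of the setting back toward that of the fetus. Nppa and Nppb encode hormones, atrial and B-type natriuretic peptide, that lower blood volume and pressure, and Nppa is made mainly in the atria of an adult. Myh6 and Myh7 encode the fast and the slow cardiac myosin heavy chain, whose balance in the mouse ventricle shifts from the slow to the fast form after birth. Acta1 encodes skeletal alpha-actin, Ankrd1 and Xirp2 encode proteins of the sarcomere and the intercalated disc that respond to stretch, and Rcan1 encodes an inhibitor of the phosphatase calcineurin that is itself switched on by calcineurin and is read as its reporter.

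Hearts came from wild type C57BL/6 mice that were 8 to 10 weeks old at the start and lived through 20 weeks of dosing. Methamphetamine hydrochloride (meth) in phosphate buffered saline (PBS) was injected into the peritoneum weekly, with a step of 2 mg per week up to 40 mg/kg, and controls received PBS alone on that schedule. There were 4 meth males, 4 PBS males, 4 meth females and 3 PBS females, each on an array of its own. Each male group held 2 mice of trial 1 and 2 of trial 2, while the titles place all females in trial 1 and another label places meth females 3 and 4 and PBS female 3 in trial 2. Only animals alive at the end of dosing could be sampled, RNA came from homogenized heart tissue with the share of atria not stated, and in such bulk RNA fewer cells of a type and less RNA per cell cannot be told apart.

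A normalized log2 signal is the log2 brightness of a probe minus the 75th percentile of its array, so 0 equals that percentile and a difference of 1 is a doubling. The 75th percentile signal was 306.85 to 588.6 and 61.4% to 71.4% of probes were well above background. Meth females 3 and 4 and PBS female 3, on slide 4 and scanned in a session of their own, held the highest values. Theirs were 438.1 to 588.6 and 67.7% to 71.4%, against at most 402.8 and 65.2% on the other arrays. The main fit has no term for slide or scan session, and both were tried as alternatives. All 15 member probes were well above background on all 15 arrays and no spot was saturated. The label of heart was borne out by 10 cardiomyocyte markers, all well above background on every array with a mean log2 signal of 7.95 to 8.33, and the sex labels by Xist, which was well above background on 7 of 7 female and 0 of 8 male arrays. Markers of airway epithelium stood apart in the meth males, with a summed signal of 35.31 to 171.1 times the 75th percentile against 1.692 to 2.25 in PBS males and 2.572 to 5.833 in females of either treatment, and 8 of the 10 tested rose in males. In females 1 of the 10 rose, Bpifa1, by 4.77 on the log2 scale, with a probe well above background on 8 of the 15 arrays. Of the 10, 6 were positive and 4 negative in females. The part of the airway markers in the member results was not tested.

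Meth and PBS hearts were compared with limma over 14222 genes, with a call at an adjusted p under 0.05. In males 0 of the 8 members were called, where 1.33% of all genes were. An unadjusted p under 0.05 was given by 3 members, beside 13.1% of all genes. In females 0 were called against 0.443% of all genes, with 1 member under 0.05 unadjusted beside 7.83% of all genes. The number of probes called in females, 215 in this fit, was 413 with slide as a fixed block, 517 with slide as a random block and 101 with the replicate block, and 0 members were called in each. With the sexes averaged 0 were called against 2.22% of all genes, and 3 members were under 0.05 unadjusted beside 12.7% of all genes. Tested for a response that differed between males and females, 0 members were called against 0.155% of all genes. Without adjustment 1 member was under 0.05, beside 8.1% of all genes. In males 4 members had a positive and 4 a negative log2 fold change with a median of -0.08, beside -0.02 over all genes. In females 6 were positive and 2 negative with a median of 0.21, beside 0.03 over all genes.

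**Figure D1:**
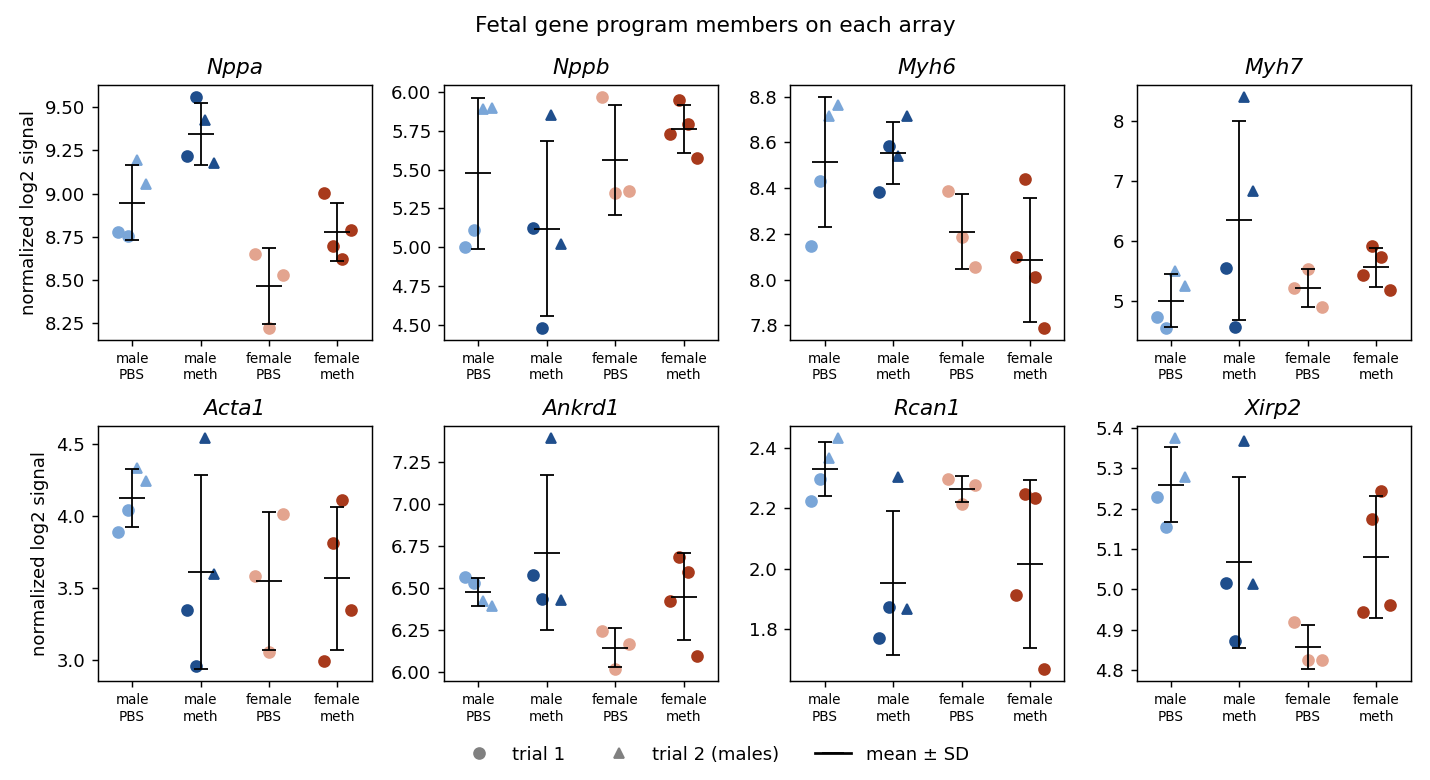
Normalized log2 signal (y axis, its own range in each panel) of the 8 genes on the 15 arrays by group (x axis). Points are mice, circles from trial 1 and triangles from trial 2, and bars are the mean ± SD. Nppa is higher in both meth groups than in the PBS group of the same sex, and Myh7 reaches 8.41 and 6.84 in the 2 meth males of trial 2.

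**Figure D2:**
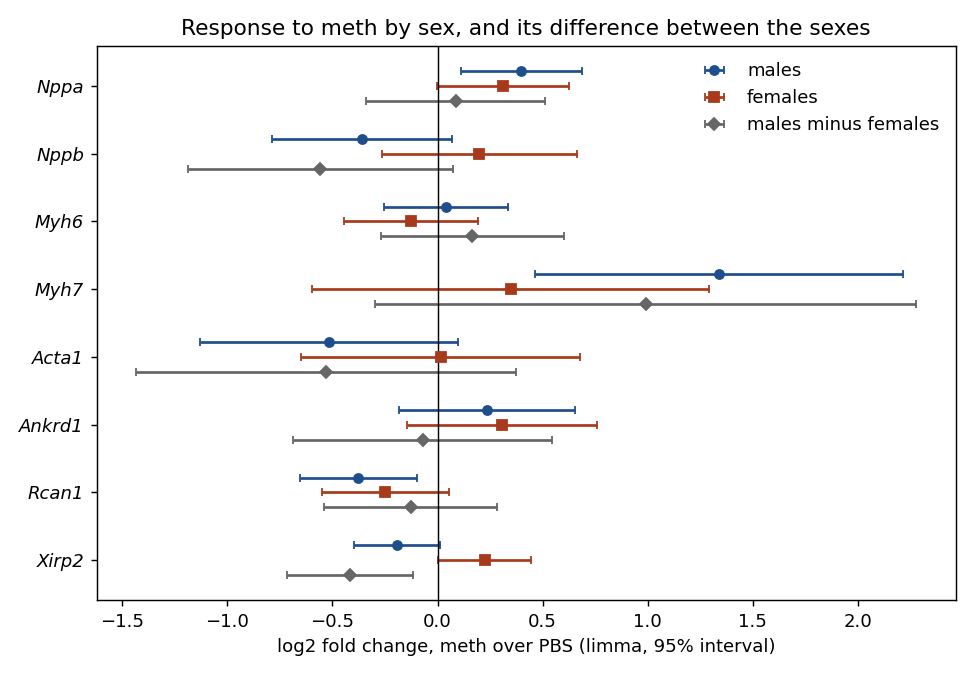
Log2 fold change of meth over PBS (x axis) with its 95% interval from limma, not adjusted for the number of genes, for the 8 genes (y axis) in males, in females, and for the male minus the female value. The male intervals of Nppa, Myh7 and Rcan1, the female interval of Xirp2 and its male minus female interval lie off 0, and none of the 8 passed after adjustment.

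Nppa lies at chr4:148000722-148002074 (GRCm38.p6, plus strand), next to Nppb at chr4:147985786-147987205. The stretch before its start is shown because GATA and NKX2-5 factors are known regulators of this gene in atrial muscle. A link between their motifs and the signals was not tested. From RefSeq, 250 bases before the start at chr4:148000472-148000721 are given 5′ to 3′, with capitals at GATAA and AAGTG on either strand.
Nppa: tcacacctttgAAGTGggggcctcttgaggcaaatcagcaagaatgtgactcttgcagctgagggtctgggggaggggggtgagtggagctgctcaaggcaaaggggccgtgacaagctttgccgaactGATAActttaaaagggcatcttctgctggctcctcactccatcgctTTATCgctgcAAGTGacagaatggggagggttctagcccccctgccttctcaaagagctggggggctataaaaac
GATAA occurred 2 times and AAGTG 2 times in it. Of all 32851 stretches of this length before a gene start, 22.6% hold GATAA and 40.7% hold AAGTG.

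The Nppa probe used (A_52_P580582) read 8.78 and 8.76 in the trial 1 PBS males, 9.20 and 9.06 in the trial 2 PBS males, 9.22 and 9.56 in the trial 1 meth males and 9.43 and 9.18 in the trial 2 meth males. Both trial 1 meth males lay above every trial 1 PBS male, while in trial 2 the groups overlapped. In females it read 8.65, 8.22 and 8.53 after PBS and 9.004, 8.69, 8.62 and 8.79 after meth, where the lowest meth heart lay just under the highest PBS heart. The log2 fold change was 0.40 (SE 0.13, adjusted p = 0.221) in males and 0.31 (SE 0.14, adjusted p = 0.454) in females, where it was 0.19 without PBS female 2. Averaged over the sexes it was 0.36, a fold of 1.28 (95% interval 1.104 to 1.482), with an adjusted p of 0.0828, the lowest of the 8 members in that comparison. An exact permutation test gave p = 0.0571 in males and 0.0857 in females, where the smallest p possible is 0.0286. The second probe of the gene followed the first over the 15 arrays (r = 0.98) and gave the same signs in both sexes.

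Other atrial genes varied along with Nppa. All 10 atrium markers tested had a positive log2 fold change in males and all 10 in females, none was called, and their median was 0.11 in males and 0.29 in females. Over the 15 arrays, deviations from the group mean of Nppa and of the mean atrium marker signal had r = 0.89, as a description of arrays that share slides and a normalization. Between meth and PBS arrays of 1 slide and sex, the mean atrium marker signal differed by 0.51 and 0.53 in the trial 1 males, by 0.42, 0.51 and 0.16 in females and by -0.07 in the trial 2 males, where Nppa differed by 0.44, 0.81, 0.36, 0.47, 0.18 and 0.17 in that order. The summed atrium marker signal was 466 to 571 in meth and 359.3 to 433.2 in PBS females, and 482.6 to 673.6 in meth and 466.1 to 654.2 in PBS males. The share of atrial tissue in each heart sample was not measured, and its part in the Nppa result was not tested.

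**Figure D3:**
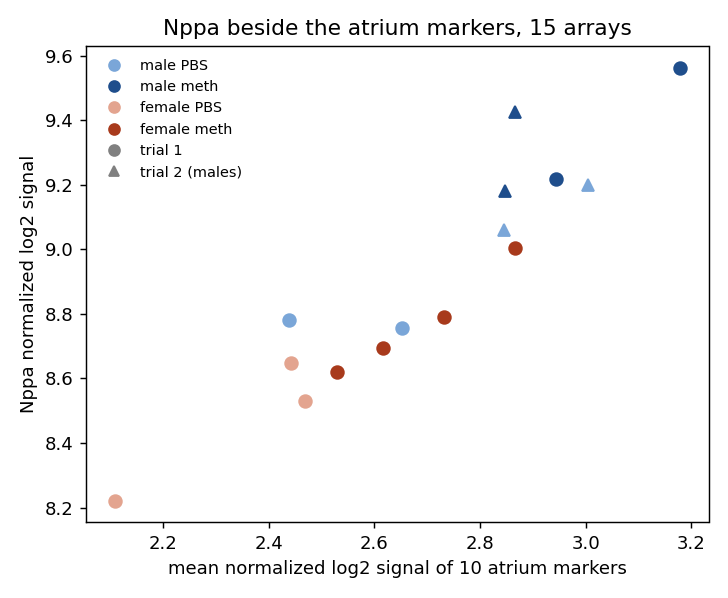
Nppa normalized log2 signal (y axis) against the mean normalized log2 signal of 10 atrium markers (x axis) on 15 arrays, coloured by group, circles for trial 1 and triangles for trial 2. Arrays with a high atrium marker signal have a high Nppa signal, with r = 0.89 for deviations from group means.

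Nppb, the B-type peptide gene made by strained ventricle, did not follow Nppa. Its start is within the annotated extent of a longer transcript, so a short stretch at chr4:147985794-147985822 (GRCm38.p6, plus strand) is shown, with capitals at CATTCC (the TEAD factors' motif, here read on the other strand) and GATAA, which lie side by side.
Nppb: aGGAATGcagctGATAAatcagaGATAAc
CATTCC is held by 12.6% of the stretches before gene starts. Nppb (A_52_P559955) read 5.00 and 5.11 in PBS and 5.12 and 4.48 in meth males of trial 1, and 5.89 and 5.90 in PBS and 5.85 and 5.02 in meth males of trial 2. In each trial, 1 of the 2 meth hearts lay well under both PBS hearts and the other lay close to them. The male log2 fold change was -0.36 (SE 0.20, adjusted p = 0.49), and -0.17 without the second trial 2 meth male. Females read 5.97, 5.35 and 5.37 after PBS and 5.73, 5.95, 5.79 and 5.58 after meth, and the groups overlapped with a log2 fold change of 0.20 (SE 0.21, adjusted p = 0.831), which ran from 0.09 without PBS female 2 to 0.40 without PBS female 1. Between PBS males, trial 2 minus trial 1 was 0.84 (SE 0.29, adjusted p = 0.213), and that comparison called 0.401% of all genes and 0 of the 8 members. Without adjustment 2 of the members were under 0.05, beside 13% of all genes.

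The genes of the peptides' processing and signalling gave 0 calls of 12 tested in males and in females, with medians of 0.02 and -0.04. The largest values were those of Mme, a peptidase that breaks natriuretic peptides down, at -0.44 in males (adjusted p = 0.315), of Pde9a, a phosphodiesterase that breaks down the peptides' second messenger cGMP, at -0.44 in females (adjusted p = 0.122), and of the clearance receptor Npr3 at 0.26 in males and 0.37 in females (adjusted p = 0.535 and 0.446).

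The pair of cardiac myosin genes lies head to tail on the minus strand, Myh7 at chr14:54970684-54994626 and Myh6 at chr14:54941921-54968017 (GRCm38.p6). Both starts hold the CATTCC motif of the TEAD factors, known regulators of Myh7, within 250 bases. Nppb, Acta1 and Ankrd1 hold it as well, and a link between the motif and the signals was not tested. The first line gives 250 bases before the Myh7 start at chr14:54994627-54994876, the outer of 2 annotated starts, and the second a short stretch at chr14:54966796-54966825, since the Myh6 start is within the extent of a longer transcript. Capitals mark CATTCC and AAGTG, which in the bases shown read on the other strand.
Myh7: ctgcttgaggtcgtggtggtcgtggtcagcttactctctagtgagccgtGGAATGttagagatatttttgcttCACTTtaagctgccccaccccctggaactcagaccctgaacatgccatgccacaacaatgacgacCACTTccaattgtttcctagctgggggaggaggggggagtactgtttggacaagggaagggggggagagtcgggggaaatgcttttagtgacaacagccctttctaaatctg
Myh6: ctttggggaggaGGAATGtgcccaaggact
The Myh7 stretch held CATTCC 1 time and AAGTG 2 times. The 250 bases before the Myh6 start held CATTCC 1 time and AAGTG 1 time. This AAGTG begins 61 bases before the start, on the strand of the gene and outside the stretch shown.

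Myh6 (A_52_P117510) differed little. It lay between 8.15 and 8.77 in PBS males and between 8.38 and 8.71 in meth males, and between 8.06 and 8.39 in PBS and 7.79 and 8.44 in meth females. The log2 fold change was 0.04 in males (95% interval -0.26 to 0.34) and -0.13 in females (-0.44 to 0.19). Its 2 probes were less alike than those of the other members (r = 0.56), with a male value of -0.07 by the second. Myosin heavy chain genes are close in sequence, the probe of the skeletal gene Myh4 read 7.02 to 8.10 in these hearts, and cross-hybridisation between them was not tested.

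Myh7 (A_52_P88033) read 4.72 and 4.55 in PBS and 5.56 and 4.57 in meth males of trial 1. In trial 2 it read 5.49 and 5.26 in PBS and 8.41 and 6.84 in meth males. Both trial 2 meth hearts lay above every other heart of the study, by up to 3.04 on the log2 scale over the trial 2 PBS mean, an 8.20-fold difference, whereas in trial 1 only 1 of the 2 meth hearts lay above its PBS hearts by more than they differed from each other. Over both trials the male log2 fold change was 1.34 (SE 0.40, adjusted p = 0.172), the meth and PBS arrays overlapped, and an exact permutation test gave p = 0.171. Without the first trial 2 meth male the value was 0.84. Trial 2 alone gave 2.25 (SE 0.45, fold 4.76, adjusted p = 0.0716), where 0.45% of all genes and 0 members were called. There 1 member was under 0.05 unadjusted, beside 11.4% of all genes. Trial 1 alone gave 0.43 (SE 0.45, adjusted p = 1), where 0.33% of all genes and 0 members were called. There 2 members were under 0.05 unadjusted, beside 6.76% of all genes.

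The difference in Myh7 between the male trials was 1.82 (SE 0.64, unadjusted p = 0.0158, adjusted p = 0.997). That comparison called 0 genes, 0% of all, and had 1 member and 4.23% of all genes under 0.05 unadjusted. Trial and slide cannot be told apart for these males, since slide 3 held all trial 2 males and no other array. In females Myh7 read 5.22, 5.54 and 4.89 after PBS and 5.43, 5.91, 5.74 and 5.18 after meth, overlapping, with a log2 fold change of 0.35 (SE 0.44, adjusted p = 0.863) and of 0.19 without PBS female 3. The second Myh7 probe followed the first over the arrays (r = 0.997) and gave 1.35 in males.

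The Myh7 to Myh6 log2 ratio, the signal of Myh7 minus that of Myh6 on an array, has no absolute meaning because the probes bind with different strength, and only its change between groups does. It was -3.51 ± 0.27 (SD, n = 4) in PBS males and -2.21 ± 1.64 (SD, n = 4) in meth males. Single meth males gave -2.83 and -4.01 in trial 1 and -0.13 and -1.87 in trial 2, so the lowest and the highest ratio of the 15 hearts were both of meth males. The difference of 1.30 had p = 0.2 by an exact permutation test. In females the ratio was -2.99 ± 0.30 (SD, n = 3) after PBS, with single hearts at -3.17, -2.65 and -3.16, and -2.52 ± 0.17 (SD, n = 4) after meth, with -2.67, -2.53, -2.27 and -2.61. Of the meth females 3 of 4 lay above every PBS female, and the difference of 0.47 had p = 0.0571 by an exact permutation test. The male minus female difference was 0.83 (95% interval -0.61 to 2.26, adjusted p = 0.766 by limma). By trial, the male difference was 0.23 (SE 0.49, adjusted p = 1) in trial 1 and 2.36 (SE 0.49, adjusted p = 0.0784) in trial 2.

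**Figure D4:**
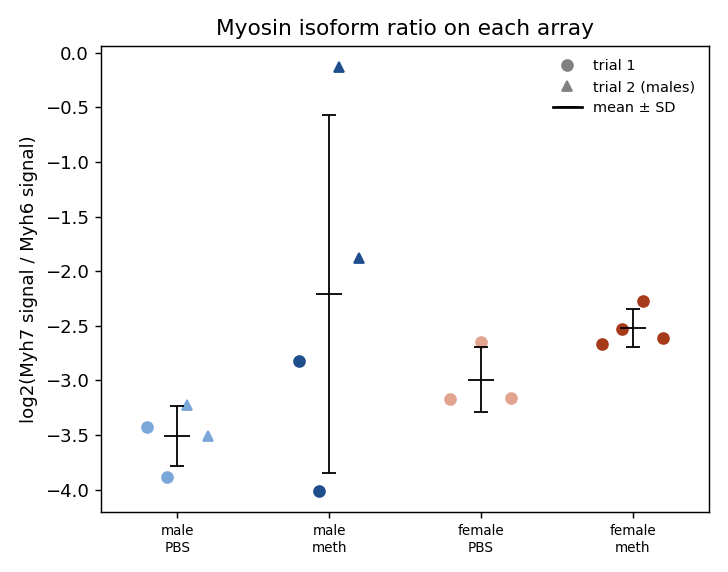
Log2 ratio of the Myh7 to the Myh6 signal (y axis) on each array by group (x axis), circles for trial 1, triangles for trial 2, bars mean ± SD. The 4 meth males run from -4.01 to -0.13, and the 4 PBS males from -3.88 to -3.22.

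Acta1, at chr8:123891758-123894775, had a lower mean in males after meth, without passing the test. PBS males read 3.89, 4.04, 4.33 and 4.24 and meth males 3.35, 2.96, 4.54 and 3.60, the first 2 of each from trial 1. In trial 1 both meth hearts lay under both PBS hearts, and in trial 2 the PBS hearts lay between the meth hearts. The log2 fold change was -0.52 (SE 0.28, adjusted p = 0.487) in males and 0.02 (SE 0.31, adjusted p = 0.994) in females, whose hearts spread from 3.05 to 4.01 after PBS and from 2.99 to 4.11 after meth.

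The stretch-responsive members gave small differences. Ankrd1, at chr19:36111965-36119844, read 6.39 to 6.56 in PBS males and 6.43, 6.44 and 6.58 in 3 meth males, with 7.40 in the first meth male of trial 2, the heart that was also highest in Myh7. The male log2 fold change was 0.23 (SE 0.19, adjusted p = 0.669), and without that heart it was -0.01. In females Ankrd1 read 6.25, 6.02 and 6.17 after PBS and 6.42, 6.69, 6.60 and 6.09 after meth, with a log2 fold change of 0.31 (SE 0.21, adjusted p = 0.671).

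Xirp2, at chr2:67446000-67526620, encodes an actin-binding protein of the intercalated disc. It read 4.92, 4.83 and 4.82 in PBS females and 4.94, 5.18, 5.24 and 4.96 in meth females. Every meth female lay above every PBS female by this probe, which held for 1 of the 8 members beside 4.21% of all genes (7% without overlap in either direction), and by the other 2 Xirp2 probes the groups overlapped. The female log2 fold change was 0.22 (SE 0.10, adjusted p = 0.446). In males it was -0.19 (SE 0.09, adjusted p = 0.425), with 5.15 to 5.38 after PBS and 5.37 in 1 and 4.87 to 5.02 in the other 3 hearts after meth. The male minus female difference, -0.42 (SE 0.14), had the lowest unadjusted p of the 8 members in that comparison, 0.0108, with an adjusted p of 0.455.

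Rcan1, at chr16:92391951-92466169, had a lower mean after meth in both sexes without passing the test. It has 2 annotated starts, which of its transcripts the probes read was not determined, and calcineurin activity was not measured. PBS males read 2.22, 2.30, 2.37 and 2.43 and meth males 1.77, 1.87, 2.30 and 1.87, so 3 of the 4 meth hearts lay under every PBS heart. PBS females read 2.30, 2.22 and 2.28, and meth females 1.91, 2.24, 2.25 and 1.67, where 2 lay under and 2 within the PBS range. The log2 fold change was -0.38 (SE 0.13, adjusted p = 0.23) in males, -0.25 (SE 0.14, adjusted p = 0.57) in females and -0.31 (fold 0.81, 95% interval 0.70 to 0.93, adjusted p = 0.113) over both. Without meth female 4 the female value was -0.13. Of 17 other genes of calcineurin, CaMK and GSK3 signalling, 0 were called in males and 1 fell in females, Akap5, a scaffold protein that holds calcineurin and protein kinase A, by 0.86 on the log2 scale (SE 0.15, adjusted p = 0.0284). The median of these genes was -0.08 in males and 0.01 in females, and Akap5 was also called over both sexes, at -0.59 (adjusted p = 0.0109).

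Meth and PBS arrays of the same sex on the same slide gave 6 differences for each gene, 1 for the males and 1 for the females of slides 1 and 2, 1 for the trial 2 males and 1 for the females of slide 4. Nppa was higher after meth in 6 of 6, by 0.17 to 0.81. Myh7 was higher in 6 of 6, by 0.02 to 2.25, and by its second probe in 5 of 6. Ankrd1 was higher in 5 of 6, Acta1 and Rcan1 were lower in 5 of 6, and Nppb, Myh6 and Xirp2 were higher in 3 of 6.

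**Figure D5:**
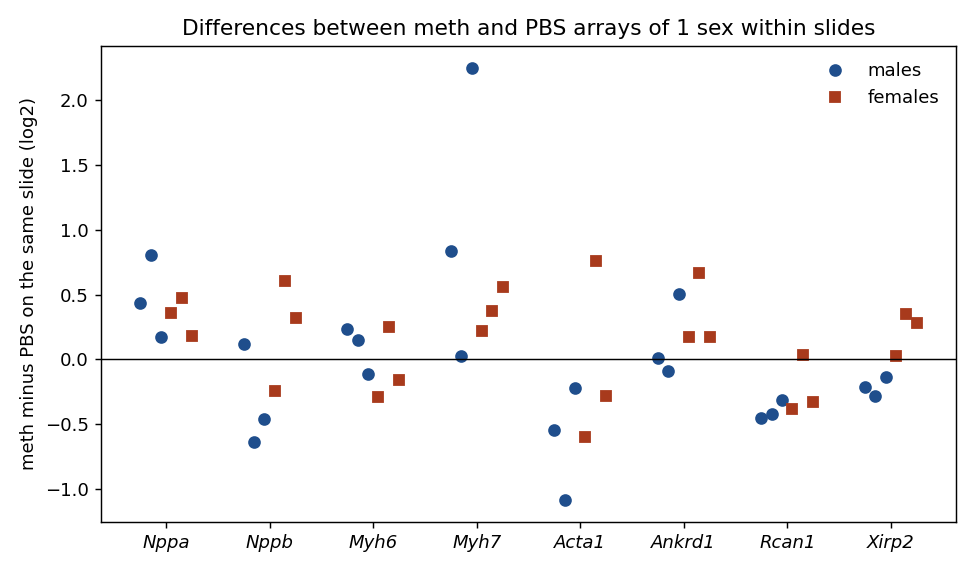
Difference in normalized log2 signal between meth and PBS arrays of the same sex and slide (y axis) for the 8 genes (x axis), circles for males and squares for females. All 6 values of Nppa and of Myh7 are above 0, and the Myh7 value of the trial 2 males is 2.25.

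In males 0 of the 8 members had meth and PBS arrays that did not overlap, where 11.6% of all genes did. Among PBS hearts, 3 of the 8 members, Nppa, Ankrd1 and Xirp2, were higher in every male than in every female, beside 8.56% of all genes (16.6% without overlap in either direction), and an exact permutation test gave p = 0.0286 for each, the smallest it can give. With the trial as a covariate, a term that meth and PBS males share, limma called 0 members and 0.563% of all genes in this comparison. Of the members, 2 were under 0.05 unadjusted, beside 15.3% of all genes. Nppa was 0.41 higher in males (SE 0.16, adjusted p = 0.251), Xirp2 0.31 higher (SE 0.11, adjusted p = 0.233) and Myh7 differed by -1.04 (SE 0.48, adjusted p = 0.332). Through that shared term the trial 2 meth males also enter the Myh7 value. The plain Myh7 means were 5.01 in PBS males and 5.22 in PBS females (p = 0.486 by an exact permutation test). All 10 atrium markers were also higher in PBS males in this fit, with a median of 0.27 and none called.

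Some members varied together within groups. Over the 15 arrays, deviations from the group means had r = 0.86 for Acta1 with Xirp2, 0.83 for Rcan1 with Xirp2, 0.83 for Ankrd1 with Rcan1 and 0.78 for Nppb with Myh7. The first meth male of trial 2 was the highest of the meth males in 6 of the 8 members, Nppb, Myh7, Acta1, Ankrd1, Rcan1 and Xirp2. Over the 14 arrays without it, left out after these values were seen, the 4 correlations were 0.75, 0.71, 0.72 and 0.61. Those of Nppa had r between -0.05 and 0.35 with every other member, and between -0.26 and 0.34 without that heart. These arrays share slides and a normalization, and the values are descriptions. By the same measure the genes most like each member were Gprin3 and Slc7a7 for Nppa (r = 0.89 and 0.87), Tnfrsf12a and Spsb4 for Nppb (0.91 for both), Uros and Tmem101 for Myh6 (0.92 for both), and Ankrd12 and Loxl3 for Myh7 (0.91 and 0.89). For Acta1 they were Amot and Itga9 (0.95 for both), for Ankrd1 Itgb5 and Phlda1 (0.93 and 0.90), for Rcan1 Prnp and Sf3b2 (0.92 for both), and for Xirp2 Il18bp and Dhdds (0.93 and 0.91). Without that heart the values of these 16 genes lay between 0.70, that of Loxl3 with Myh7, and 0.95. These genes were picked for the highest r on the same arrays, so neither set of values tests the likeness.

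Other genes of the program were looked at by list. Among 9 other fetal or atrial contractile isoforms, 0 were called in either sex, 7 were positive in males with a median of 0.02 and 9 were positive in females with a median of 0.17, the largest being the atrial light chain Myl4 at 0.68 and Myl1 at 0.64 in females (adjusted p = 0.236 and 0.062) and slow troponin I, Tnni1, at 0.38 in males (adjusted p = 0.294). Myl4 and Myl7 are also among the 10 atrium markers, so these values are in part those given for the atrium markers. Myl1 was higher in PBS males than in PBS females, by 1.08 (adjusted p = 0.00963). Of 15 adult-pattern genes, which a stressed heart lowers, 14 were negative in males with a median of -0.12 and 7 in females with a median of 0.00, and 0 were called. The largest values were those of Ppargc1a at -0.26 in males (adjusted p = 0.44) and of the potassium channel Kcnd3 at -0.79 in females (adjusted p = 0.347). The positive value in males was that of Kcnip2, at 0.21 (adjusted p = 0.367). Atp2a2, Pln, Tnni3, Myl2 and Ryr2 are also among the 10 cardiomyocyte markers. Of those 10 markers, 9 were negative in males with a median of -0.09 and 3 in females with a median of 0.03, and 0 were called. Whether the adult-pattern genes differed from these markers was not tested.

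Of 22 transcriptional regulators of the program that were tested, 0 were called, 15 were negative in males with a median of -0.11 and 11 in females with a median of 0.00. Mrtfb, a partner of serum response factor, was at -0.27 in males (adjusted p = 0.25), and Hand2 at 0.35 in females (adjusted p = 0.598). Of 21 genes of the Z-disc and the intercalated disc that sense strain, 0 were called, 15 were negative in males with a median of -0.12 and 14 were positive in females with a median of 0.06. Relatives of Ankrd1 had the largest male values, Ankrd23 at -0.66 and Ankrd2 at -0.58 (adjusted p = 0.0905 and 0.309), and the titin cap Tcap was at 0.43 in females (adjusted p = 0.316).

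Secreted markers of a stressed and remodelling heart stood farthest from the median of all genes among these lists of the program. Of 15 tested, 14 were positive in males with a median of 0.41 and 10 in females with a median of 0.25, beside -0.02 and 0.03 over all genes, and 0 were called. Periostin, Postn, a matrix protein of activated fibroblasts, was at 1.04 in males (SE 0.29, adjusted p = 0.146), and osteopontin, Spp1, at 1.99 in females (SE 0.60, adjusted p = 0.174). Among 10 tested skeletal muscle markers 1 fell in males, the fast troponin I gene Tnni2, by 0.64 on the log2 scale (adjusted p = 0.0246), and 0 were called in females. In males 3 of the 10 were positive and 7 negative with a median of -0.15, and the farthest from 0 was Pvalb, the calcium buffer parvalbumin, at 1.15 (SE 0.27, adjusted p = 0.0707). The Pvalb probe was well above background on only 3 of the 15 arrays, so its change is one of values near the floor. In females 5 were positive and 5 negative with a median of -0.01. Of 6 smooth muscle markers 0 were called, with medians of -0.01 in males and 0.02 in females.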

How the data were processed

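Cy3-labelled RNA of 15 mouse hearts was hybridised by the authors to Agilent arrays of 1 colour, with 1 heart per array, and spots were read with Feature Extraction. The deposited intensity of a spot has its background subtracted and carries no normalization. In a second deposited file, log2 values equal the log2 signal plus an array constant, and they served as an alternative. Their 75th percentile was 8.39 to 8.40 on every array, so this alternative repeats the shift of the main fit and could hardly differ from it. Deposited flags, an other kind of value, mark controls, outlier spots and signals well above background. Controls and outliers were dropped, spots of a probe were averaged on the log2 scale, and the 75th percentile of each array was subtracted. Accessions were named through RefSeq tables of GRCm38.p6. The brightest probe by mean stands for a gene.

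The 28367 probes that were well above background on 3 arrays or more were fitted with limma 3.58.1 in R 4.3.3, with 4 groups and the trial as a covariate, and adjusted by Benjamini-Hochberg over all of them. The fit was tested on simulated data with noise independent between arrays, which leaves out the deviations shared by female arrays of 1 slide given below. Percentages of genes called are over 14222 genes. Tests are two-sided, and exact permutation tests enumerated all 70 or 35 regroupings without regard to pairs. Plots used matplotlib 3.10.9 in Python 3.11.15. Named are all members, from each context list the genes past the threshold or otherwise up to 2 with the largest change, and the 2 genes most like each member. Members and lists were chosen with earlier results of these data known. Meth and PBS females of 1 number share a slide and deviate together (0.30, 0.44 and 0.66), and number and slide cannot be told apart for them. Males of 1 number did not deviate together (-0.09 and 0.01). The main fit has no term for slide or number. Alternatives covered the background correction, normalization, filter, covariates, blocks, probes, single arrays left out and the study's paired t-test. The number of arrays limits the precision, and p-values cover the spread between mice of these trials.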

Additional observations from a re-analysis of the deposited data

Results flagged for a closer look

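In 27 sets of 4 mice, the 8 genes and the Myh7 to Myh6 ratio in each group of 4, the gap of the farthest mouse to its neighbour was set against the range of the set and compared with Dixon's 95% critical value. Chance passes about 1 in 20 such sets, and 1 of 27 passed. It was Ankrd1 in the meth males, where the first mouse of trial 2 read 7.40, the nearest read 6.58, and the gap took up 0.847 of the range. The same heart was the highest of the meth males in 6 of the 8 members and in the Myh7 to Myh6 log2 ratio. Without passing, its gap took up 0.81 of the range in Rcan1, 0.708 in Xirp2, 0.596 in Acta1, 0.533 in Nppb, 0.45 in the ratio and 0.409 in Myh7. No member differed between the sexes in its response to meth after adjustment.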

How the results depend on the processing

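No member was called under any alternative in any of the 5 comparisons, including each setting that left out 1 array, the replicate block, under which 0 members were called in males and in females, and the methods' t-test after Benjamini-Hochberg. Of 916 values under alternatives, 888 were scored as the same. For a fold change or a tested ratio this meant the same sign and side of the threshold, and for a count of members the same count. A ratio without a test had to keep its sign and move by less than the SD of the meth mice of that sex. By this loose rule the male ratio of 0.23 with trial 1 arrays alone also counts as the same. Without adjustment the methods' paired t-test gave 1 member under 0.05 in males (Rcan1) and 0 in females, and its unpaired form 2 in males (Nppa and Rcan1) and 0 in females. Of the 28367 probes, 4285 in males and 2817 in females were under 0.05 by the paired form, and 3749 and 2351 by the unpaired. The adjusted p of Nppa over both sexes ran from 0.052 with slide as a random block to 0.44 with normexp background correction, and that setting, which also took the median pixel signal in place of the processed signal, called 52 probes in males against 314; the cause was not tested. The female myosin ratio was 0.52 with quantile normalization and there reached the smallest p of its exact permutation test. Leaving out 1 mouse, the male ratio ran from 0.61 (without the first trial 2 meth male) to 1.90 (without the second trial 1 meth male). In that last setting its exact permutation p, not adjusted, was under 0.05, and the heart left out had the lowest ratio, -4.01. The male minus female ratio, 0.83 over all arrays, turned to -0.24 with trial 1 arrays alone. Other signs turned as follows. Female Acta1 was -0.014 with normexp, -0.041 with quantile normalization, -0.077 with the trial by source name, -0.0635 with slide or scan session as a fixed block and -0.0295 with slide as a random block, and -0.23 to 0.25 leaving out 1 mouse. Male Myh6 was -0.0151 with normexp, -0.0139 with the mean over its probes and -0.068 by its second probe, and -0.048 to 0.11 leaving out 1 mouse. The male minus female value of Rcan1 was 0.034 with normexp, that of Ankrd1 0.12 with quantile normalization and -0.32 to 0.0675 leaving out 1 mouse, that of Nppa -0.021 with the median shift and -0.027 to 0.21 leaving out 1 mouse, and that of Myh6 -0.0142 by its second probe. Male Ankrd1, 0.23 over all arrays, was -0.039 with trial 1 arrays alone and -0.014 to 0.37 leaving out 1 mouse. With 3 or 4 arrays a group, a difference of the size seen in Nppa did not pass adjustment over all probes, and 2 arrays a group within a male trial limit the Myh7 result.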
